A study of Mus musculus with 8 samples.

Results

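Transcript levels of 10 genes that encode enzymes removing superoxide and peroxides were compared between wild-type (WT) pancreas buds and buds without LATS1/2 kinases. The genes were *Sod1*, *Sod2* and *Sod3* (superoxide dismutases), *Cat* (catalase) and *Gpx1*, *Gpx2*, *Gpx3*, *Gpx4*, *Gpx7* and *Gpx8* (glutathione peroxidases). They were the rows of the deposited expression table with those symbols, 10 of 24341 genes in all, and every one was found once. LATS1 and LATS2 are the kinases of the Hippo pathway that hold back the transcriptional coactivators YAP1 and TAZ. Total RNA was sequenced from 5 WT buds and from 3 buds of genotype Pdx1Creearly;Lats1f/f;Lats2f/f, called *Lats1/2*PanKO here, all of the CD1 strain at E11.0, about 40 somites. The study's methods name CD1 mice for WT analyses and drug treatments, and other lines carrying the floxed and Cre alleles. They also say that littermate controls could be WT or heterozygous, while the labels call these 5 buds WT. Each bud gave 1 library, and the mesenchyme around the epithelium had been pulled away with forceps. The Cre recombinase is driven by the *Pdx1* promoter, so that the floxed alleles are deleted in pancreatic epithelium, while blood, vessels and remaining mesenchyme in a mutant bud keep both kinases. Levels are given as FPKM, the number of sequenced fragments scaled to transcript length and to the mapped fragments of the library.

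Superoxide dismutases turn superoxide into hydrogen peroxide, and catalase and the peroxidases then remove that peroxide. The enzymes divide the cell between them. SOD1 works mainly in the cytosol with copper and zinc, SOD2 in the mitochondrial matrix with manganese, SOD3 outside the cell and catalase in the peroxisome. Of the glutathione peroxidases, GPX1 to GPX4 spend reduced glutathione, which glutathione reductase restores. GPX1 to GPX4 carry selenium in the active site as selenocysteine, which is encoded by a UGA codon that would otherwise end the protein, whereas GPX7 and GPX8 have a cysteine there and sit in the endoplasmic reticulum. The study asked about oxidative stress in pancreata without LATS1/2, and these enzymes are among those that directly remove the oxidants.

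The codon at this active site is what separates the selenium enzymes from the others, so the 33 bases around it are shown for each glutathione peroxidase, with that codon in capitals (GENCODE M21 transcripts, GRCm38, 5′ to 3′ on the coding strand).
Gpx1: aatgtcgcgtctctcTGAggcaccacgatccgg
Gpx2: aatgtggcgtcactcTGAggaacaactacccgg
Gpx3: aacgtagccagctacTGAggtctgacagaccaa
Gpx4: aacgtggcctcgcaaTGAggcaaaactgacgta
Gpx7: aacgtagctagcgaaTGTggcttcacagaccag
Gpx8: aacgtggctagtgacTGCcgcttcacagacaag
Each of *Gpx1*, *Gpx2*, *Gpx3* and *Gpx4* had 1 in-frame TGA, annotated as selenocysteine, and in *Gpx7* and *Gpx8* the aligned codon was TGT or TGC, both of which encode cysteine. The codon is number 47 of 201 in exon 1 of *Gpx1* (chr9:108339451-108339453, plus strand) and number 40 of 190 in exon 1 of *Gpx2* (chr12:76795256-76795258, minus strand). In *Gpx3* it is number 73 of 226 in exon 2 (chr11:54907256-54907258, plus strand), and in *Gpx4* number 73 of 197 in exon 3 (chr10:80054737-80054739, plus strand). The cysteine codon is number 56 of 186 in exon 2 of *Gpx7* (chr4:108403430-108403432, minus strand) and number 79 of 209 in exon 2 of *Gpx8* (chr13:113045661-113045663, minus strand). Over their aligned coding bases the 6 genes were 44.8% to 64.9% identical, with *Gpx1* and *Gpx2* the closest pair and *Gpx7* and *Gpx8* next at 55.9%.

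In WT buds the 10 genes ran from 498 FPKM to below 1. *Sod1* was the most abundant at 498 ± 67.9 FPKM (SD, n = 5), followed by *Gpx1* at 156 ± 42.9 and *Gpx4* at 96.2 ± 11.4. *Cat* (48.6 ± 3.54), *Gpx8* (45.9 ± 3.50) and *Gpx3* (41.5 ± 2.08) formed a middle group, in which neighbours overlapped in their WT ranges. *Sod2* (11.9 ± 1.03) and *Gpx7* (9.12 ± 1.63) also overlapped, and *Gpx2* (2.01 ± 0.495) and *Sod3* (0.271 ± 0.167) came last. The other neighbours in this order did not overlap and stood in the same order in all 8 libraries. By mean level over the libraries, *Sod1* ranked 176 and *Gpx2* 10286 of the 13777 genes that averaged 0.5 FPKM or more. *Sod1* made up 97.6% of the summed dismutase FPKM on average in each genotype.

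**Figure D1:**
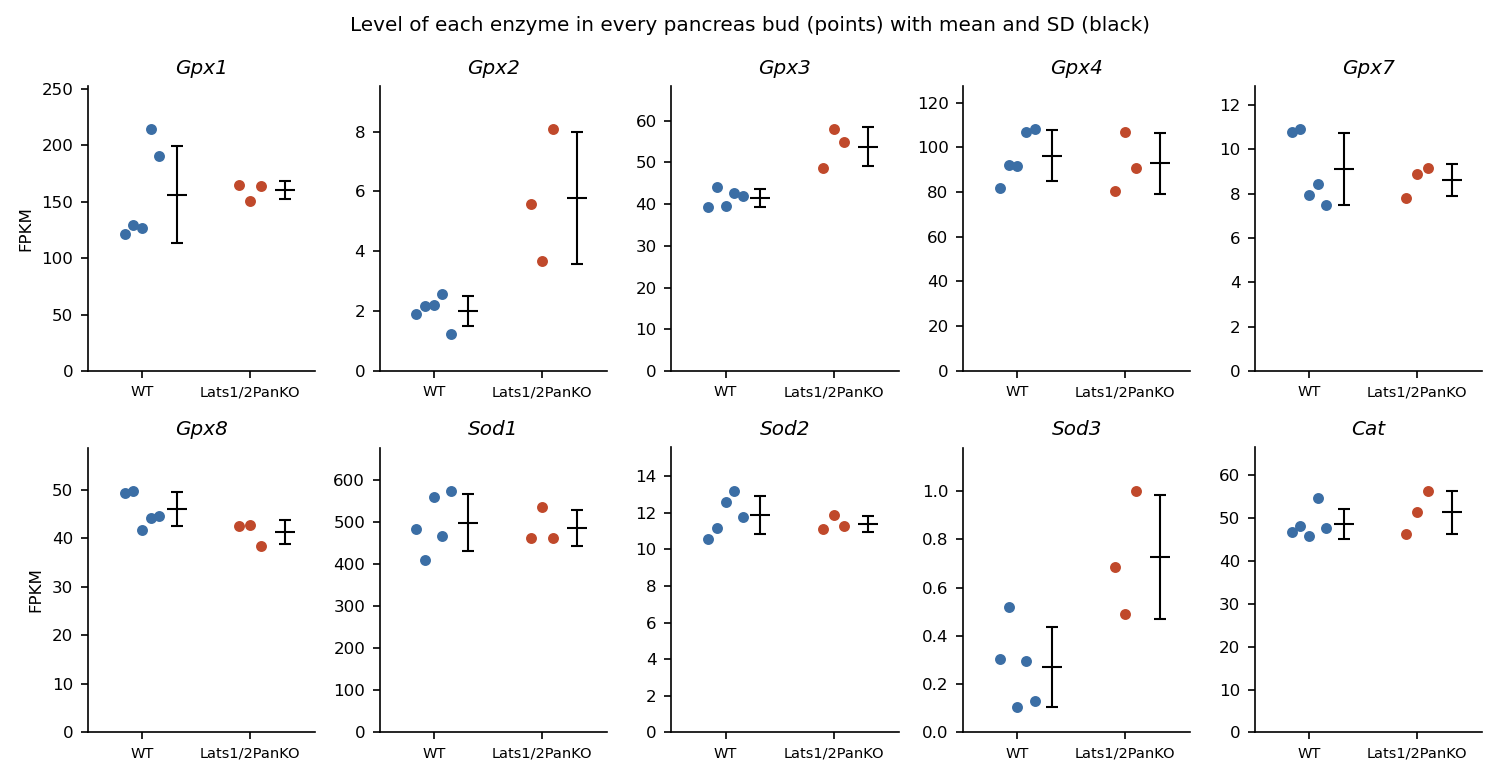
FPKM of the 10 genes in each pancreas bud, with a linear axis from 0 in every panel. Points are the 5 WT (blue) and 3 Lats1/2PanKO (red) libraries, and black marks are the mean and SD of each genotype. The genotypes do not overlap in Gpx2 and Gpx3, and they overlap in the other 8 panels.

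Some libraries stood apart in their cell type markers. Summed over 17 epithelial genes (*Krt18* and *Krt8* among the highest), the *Lats1/2*PanKO libraries held 577, 509 and 1178 FPKM against 272 to 339.6 in WT, and 15 of the 17 genes were higher at an unadjusted p under 0.05, with 0 adjusted. *Lats1/2*PanKO replicate 3 was therefore far above the other mutant buds. Summed erythroid markers (embryonic globins and other red cell genes) ranged from 2667 to 15879 FPKM in WT and from 8124 to 10275 in *Lats1/2*PanKO, with WT replicate 4 the highest. Of 11 tested erythroid genes, 0 passed an unadjusted p of 0.05, but all 11 had log2 fold changes above 0 (0.22 to 2.15). *Lats1* was at 14.1 to 16.6 FPKM in WT and at 12.3, 13.8 and 10.1 in *Lats1/2*PanKO (limma, adjusted p = 0.269), and *Lats2* was at 11.6 to 14.7 and at 13.4, 12.3 and 11.1 (limma, adjusted p = 0.589). Transcripts of both genes were thus still counted in the mutant buds, at 0.774 and 0.887 of the WT mean, but a gene-level FPKM does not show whether the floxed exons remain in them and does not measure the kinases. In whole buds, fewer cells of a type and less RNA per cell cannot be told apart.

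Two-sided tests were made with limma on log2(FPKM + 1) over all 13777 genes, and 9 of the 10 enzymes were in the fit, since *Sod3* averaged 0.442 FPKM. None of the 9 passed an adjusted p of 0.05 after Benjamini-Hochberg correction. In the whole fit 2 genes passed an adjusted p of 0.05, which is 0.0145% of those tested. That number was 69 without *Lats1/2*PanKO replicate 2, 19 without replicate 3, 1 without replicate 1, 4 without WT replicate 4 and 0 without any 1 of the other WT libraries. At an unadjusted p under 0.05, *Gpx2* and *Gpx3* passed, beside 11.3% of all genes tested, or 6.29% higher and 4.99% lower in *Lats1/2*PanKO. They were also the 2 of 9 enzymes whose genotypes did not overlap, beside 7.51% of all genes, or 4.46% higher and 3.06% lower. Of the 9, 4 were higher and 5 lower in *Lats1/2*PanKO, with a median log2 fold change of -0.03 against -0.01 over all genes.

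**Figure D2:**
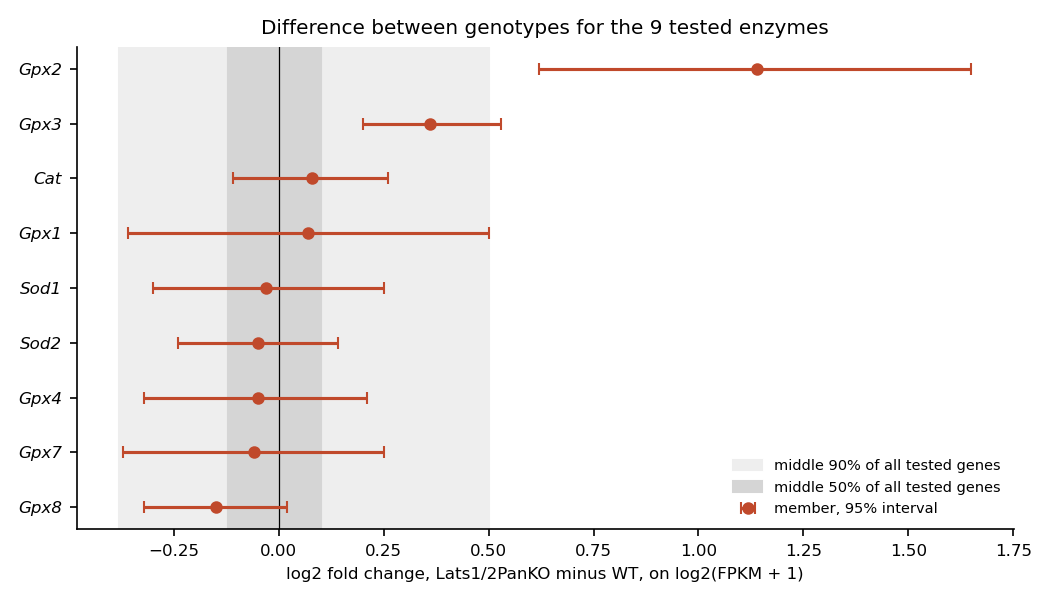
Log2 fold change on log2(FPKM + 1), Lats1/2PanKO minus WT, for the 9 tested enzymes, with 95% intervals from limma. Grey bands hold the middle 50% (-0.12 to 0.10) and 90% (-0.38 to 0.50) of all tested genes. Only the intervals of Gpx2 and Gpx3 lie wholly above 0, and the other 7 cross it.

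The most abundant enzyme, *Sod1* (chr16:90220762-90226333, RefSeq, GRCm38.p6), showed no difference that exceeded the spread between buds. Its values were 482, 409.9, 559, 465 and 573 FPKM in WT and 461, 536 and 461 in *Lats1/2*PanKO. All 3 mutant values lay inside the WT range. The log2 fold change was -0.03 (SE 0.12), and the 95% interval in folds ran from 0.81 to 1.19 (limma, adjusted p = 0.955). *Ccs*, which encodes the chaperone that loads copper into SOD1, was at 11.6 ± 1.91 FPKM in WT and 9.98 ± 0.939 in *Lats1/2*PanKO (limma, adjusted p = 0.664).

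*Sod2* (chr17:13007839-13018119), the manganese enzyme of mitochondria, was steadier. It was at 10.6, 11.2, 12.6, 13.2 and 11.8 FPKM in WT and at 11.1, 11.9 and 11.3 in *Lats1/2*PanKO, so that again every mutant bud fell within the WT range. The log2 fold change was -0.05 (SE 0.09), with a 95% interval of 0.84 to 1.11 in folds (limma, adjusted p = 0.881).

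*Sod3* (chr5:52363804-52369738) encodes the secreted dismutase, and it was close to the lower end of the table in every bud. WT libraries held 0.305, 0.521, 0.105, 0.296 and 0.130 FPKM, and *Lats1/2*PanKO libraries 0.686, 0.492 and 1.00. Mutant replicates 1 and 3 were above every WT bud, and replicate 2 was below WT replicate 2. The means were 0.271 ± 0.167 (n = 5) and 0.726 ± 0.257 (n = 3), a ratio of 2.68, and the exact two-sided permutation test gave p = 0.0357, where 0.0179 is the smallest possible. With no filter on low values, *Sod3* entered the limma fit with a log2 difference of 0.44 (limma, adjusted p = 0.360). The number of fragments behind such low values was not recovered, so this difference has no counting interval.

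Catalase showed a small difference that did not exceed its error. *Cat* (chr2:103453904-103485153) was at 46.8, 48.2, 45.7, 54.7 and 47.6 FPKM in WT, where replicate 4 lay away from the others, and at 46.3, 51.4 and 56.3 in *Lats1/2*PanKO. One mutant bud exceeded the WT range. The log2 fold change was 0.08 (SE 0.08), and the 95% interval in folds was 0.93 to 1.20 (limma, adjusted p = 0.782). *Pex5*, whose product imports catalase into peroxisomes, was at 9.57 ± 1.91 FPKM in WT and 8.73 ± 0.0907 in *Lats1/2*PanKO (limma, adjusted p = 0.833).

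*Gpx1* (chr9:108339080-108340342), the main cytosolic glutathione peroxidase and an abundant protein of red cells, varied most among the better expressed enzymes. It was at 121, 129, 127, 214 and 190.4 FPKM in WT, a coefficient of variation of 27.5%, and at 165, 151 and 164 in *Lats1/2*PanKO. The WT buds thus split into 3 below and 2 above all mutant buds. The log2 fold change was 0.07 (SE 0.19), with a 95% interval of 0.78 to 1.42 in folds (limma, adjusted p = 0.917). Across the 8 libraries the order of *Gpx1* was the order of the summed erythroid markers, except that WT replicates 2 and 3 changed places. *Prdx2*, another peroxidase known from red cells, was lowest in WT replicate 1 (307 FPKM) and highest in WT replicate 4 (442 FPKM), as the erythroid sum was, and was chosen after its values were seen. *Cat*, which red cells also contain, did not share this order: its lowest value was in WT replicate 3 and its highest in *Lats1/2*PanKO replicate 3. The part of red cell content in these values was not tested.

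**Figure D3:**
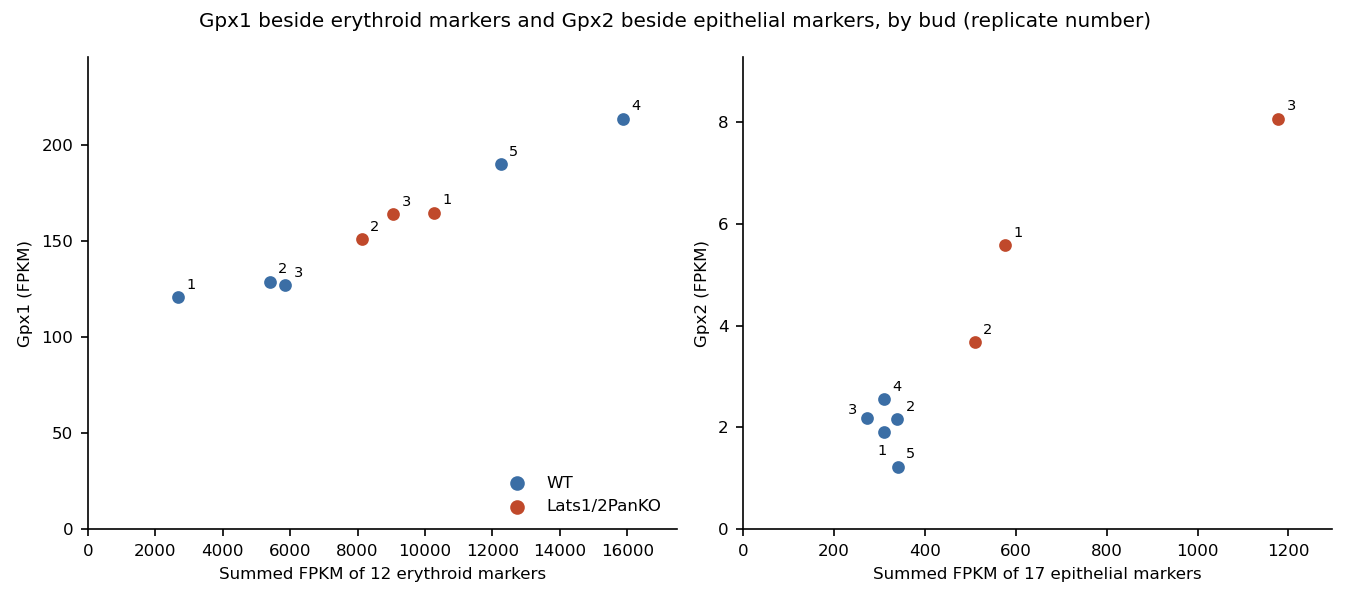
Left, Gpx1 (FPKM) against the summed FPKM of 12 erythroid markers. Right, Gpx2 (FPKM) against the summed FPKM of 17 epithelial markers. Each point is 1 bud, numbered by replicate, WT in blue and Lats1/2PanKO in red, with linear axes from 0. Gpx1 climbs with the erythroid sum from 121 to 214 over both genotypes, and the 3 mutant buds are the highest of the 8 in both Gpx2 and the epithelial sum.

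*Gpx2* (chr12:76792335-76795554, minus strand) encodes the selenium peroxidase known from the epithelium of the gut, and it had the largest fold change of the tested enzymes. WT buds held 1.91, 2.16, 2.19, 2.56 and 1.23 FPKM, and *Lats1/2*PanKO buds 5.58, 3.68 and 8.07. Every mutant bud was above every WT bud, although the mutant buds differed among themselves by more than the whole WT range. The means were 2.01 ± 0.495 (n = 5) and 5.77 ± 2.20 (n = 3), a ratio of 2.87. On log2(FPKM + 1) the difference was 1.14 (SE 0.23; 95% interval 0.62 to 1.65; limma, adjusted p = 0.140). The exact permutation test gave its smallest possible p of 0.0179, which became 0.348 when adjusted over all genes tested. Without *Lats1/2*PanKO replicate 2, the bud with the lowest mutant value, the log2 difference was 1.38 with an adjusted p of 0.0462 (limma), and without replicate 3 it was 0.90 with an adjusted p of 0.333.

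The order of *Gpx2* in the mutant buds was the order of their epithelial marker sums, 509, 577 and 1178 FPKM, while in WT the orders differed. Per 100 FPKM of the epithelial sum, *Gpx2* was at 0.617, 0.639, 0.805, 0.826 and 0.361 in WT (mean 0.650 ± 0.187) and at 0.966, 0.722 and 0.685 in *Lats1/2*PanKO (mean 0.791 ± 0.153). On that scale the genotypes overlapped, and 2 of the 3 mutant buds lay within the WT range. The epithelial sum was itself higher in every mutant bud, so this scale is not a neutral measure of epithelial content. The FPKM of *Sod3* followed the same order of mutant buds as the FPKM of *Gpx2*. So few buds have few possible orders, and a match of orders among them carries little weight. Progenitor markers, *Sox9* and *Onecut1* among them, were also higher in the mutants, with sums of 174 to 439 FPKM against 109.9 to 152, and 6 of 12 passed an unadjusted p of 0.05 with 0 adjusted. The part of epithelial content in the *Gpx2* difference was not tested.

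*Gpx3* (chr11:54902854-54910387) encodes the secreted peroxidase of blood plasma and extracellular fluid. Its values were 39.2, 44.0, 39.6, 42.7 and 42.0 FPKM in WT and 48.7, 57.9 and 54.8 in *Lats1/2*PanKO, so that every mutant bud was above every WT bud. WT buds differed little, with a coefficient of variation of 5.01%, at the 6.93 percentile of the genes tested. The mean was 41.5 ± 2.08 (n = 5) in WT and 53.8 ± 4.68 (n = 3) in *Lats1/2*PanKO, a ratio of 1.30, and the log2 difference was 0.36 (SE 0.07; 95% interval 0.20 to 0.53; limma, adjusted p = 0.136). The exact permutation p was again 0.0179. With 1 library left out, the log2 difference stayed between 0.31 and 0.43 (limma, adjusted p of 0.118 to 0.364).

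The mutant buds did not stand in the same order for *Gpx3* as for *Gpx2*, because replicate 2 was the highest in *Gpx3* and the lowest in *Gpx2*. Per 100 FPKM of the epithelial sum, *Gpx3* was at 12.4 to 14.5 in WT and at 8.43, 11.4 and 4.65 in *Lats1/2*PanKO, below WT in all 3. The sum itself was 272 to 339.6 FPKM in WT and 577, 509 and 1178 in *Lats1/2*PanKO. A gene that rises less than the sum falls on this scale, and the FPKM of *Gpx3* rose by a ratio of 1.30. The fall therefore follows from the sum and says nothing further about *Gpx3*. Mesenchymal markers summed to 1054 to 1238 FPKM in WT and to 870.3 to 1064 in *Lats1/2*PanKO, with 1 of 15 tested genes higher and 4 lower at an unadjusted p under 0.05. Liver markers, with *Ttr* and *Afp* the highest, summed to 113 to 199 FPKM in WT and to 203, 162 and 468 in *Lats1/2*PanKO, with 3 of 10 tested genes higher and 0 lower. All 10 liver genes had log2 fold changes above 0 (0.09 to 1.23). Macrophage markers lay between 14.2 and 32.9 FPKM in WT and between 21.9 and 31.5 in *Lats1/2*PanKO, and 0 of 10 passed. Endothelial markers summed to 131 to 222 and 92.8 to 146 FPKM, with 0 of 10 higher and 3 lower, and all 10 had log2 fold changes below 0 (-0.71 to -0.24). Neural markers summed to 18.2 to 27.4 and 21.5 to 35.9 FPKM, with 1 of 8 higher and 0 lower. In none of these lists did a gene pass adjustment (limma). The part of these cell types in the *Gpx3* difference was not tested.

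Since *Gpx2* and *Gpx3* were the enzymes that separated the genotypes, the 300 bases from 250 before to 50 after their RefSeq start sites are shown (GRCm38.p6, 5′ to 3′ on the gene's strand, *Gpx2* from chr12:76795505-76795804, minus strand, and *Gpx3* from chr11:54902604-54902903, plus strand), all in lower case because no searched motif was in them.
Gpx2: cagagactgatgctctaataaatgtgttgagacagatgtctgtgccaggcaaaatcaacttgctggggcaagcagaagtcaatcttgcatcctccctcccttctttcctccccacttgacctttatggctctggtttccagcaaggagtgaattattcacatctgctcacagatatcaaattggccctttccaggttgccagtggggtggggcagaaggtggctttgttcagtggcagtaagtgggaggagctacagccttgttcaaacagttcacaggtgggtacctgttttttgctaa
Gpx3: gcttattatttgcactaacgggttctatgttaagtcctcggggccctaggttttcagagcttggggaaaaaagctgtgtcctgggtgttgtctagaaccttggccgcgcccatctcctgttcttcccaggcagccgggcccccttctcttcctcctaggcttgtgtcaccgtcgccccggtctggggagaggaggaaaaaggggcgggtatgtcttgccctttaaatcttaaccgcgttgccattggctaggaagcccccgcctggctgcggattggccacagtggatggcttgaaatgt
The *Gpx2* window had 48.3% GC and 0 CpG pairs, and the *Gpx3* window 56.3% GC and 13 CpG pairs, beside medians of 52.7% and 7 over 32851 mouse promoter windows. On both strands, 3 motifs were searched, namely the antioxidant response element core TGACNNNGC (in 12.4% of all windows), the TEAD motif GGAATG (14.7%) and the AP-1 motif TGANTCA (7.81%). A window was found for 9 of the 10 genes, 12 windows in all. The antioxidant response element core occurred in the window of *Sod1*, 56 bases before the start, on the opposite strand (GCGTGGTCA as read on the gene's strand). The TEAD motif occurred in the window of *Gpx8*, 23 bases before the start, also on the opposite strand (CATTCC as read on the gene's strand). These are matches of letters in a short window and say nothing about binding.

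*Gpx4* encodes the peroxidase that reduces lipid hydroperoxides within membranes, and its transcript level overlapped throughout. It was at 81.6, 92.0, 91.6, 107 and 108 FPKM in WT and at 80.6, 107 and 90.8 in *Lats1/2*PanKO. Replicate 1 of the mutants was just below the lowest WT bud. The log2 fold change was -0.05 (SE 0.12), with a 95% interval of 0.80 to 1.16 in folds (limma, adjusted p = 0.909). The locus under which the table lists *Gpx4* spans 672333 bases and holds 57 other annotated genes, against 9274 bases for the gene itself (chr10:80047166-80056439). Whether these neighbours affect its value was not tested.

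The cysteine peroxidases of the endoplasmic reticulum overlapped between genotypes. *Gpx7* (chr4:108400217-108406713, minus strand) was at 10.8, 10.9, 7.92, 8.45 and 7.49 FPKM in WT and at 7.81, 8.88 and 9.18 in *Lats1/2*PanKO, and the log2 fold change was -0.06 (SE 0.14; 95% interval in folds 0.77 to 1.19; limma, adjusted p = 0.907). *Gpx8* (chr13:113042757-113046430, minus strand) was at 49.3, 49.7, 41.7, 44.1 and 44.5 FPKM in WT and at 42.5, 42.6 and 38.3 in *Lats1/2*PanKO. The mutant values sat at or below the low end of the WT values, with 1 below all of them. The log2 fold change of *Gpx8* was -0.15 (SE 0.08; 95% interval in folds 0.80 to 1.01; limma, p = 0.0756, adjusted p = 0.515; exact permutation p = 0.125). The table's locus for *Gpx8* also takes in *Mir449a*, *Mir449b* and *Mir449c*.

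*Prdx4*, the peroxiredoxin of the endoplasmic reticulum that shares the substrate of GPX7 and GPX8, was lower in all 3 mutant buds (53.0, 56.1 and 54.4 FPKM) than in any WT bud (58.9 to 71.9 FPKM), with a log2 fold change of -0.28 (SE 0.07; exact permutation p = 0.0357; limma, adjusted p = 0.238). *P4hb*, the protein disulfide isomerase they oxidise, was level at 246 ± 8.41 and 245 ± 15.7 FPKM, with a 95% interval of 0.90 to 1.10 in folds (limma, adjusted p = 0.970).

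Added together, the 6 glutathione peroxidases gave 304 to 419 FPKM in WT and 349.9 to 371 in *Lats1/2*PanKO. *Gpx1* supplied 43.9% of the sum on average in WT and 44.2% in *Lats1/2*PanKO, and *Gpx4* 27.5% and 25.6%. *Gpx3* supplied 10.2% to 13.4% in WT buds and 13.9% to 15.6% in mutant buds, without overlap. *Gpx2* remained a minor share, 0.311% to 0.707% in WT and 0.990% to 2.21% in *Lats1/2*PanKO, also without overlap. *Gpx8* made up 13.3% and 11.4% on average and *Gpx7* 2.67% and 2.38%.

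**Figure D4:**
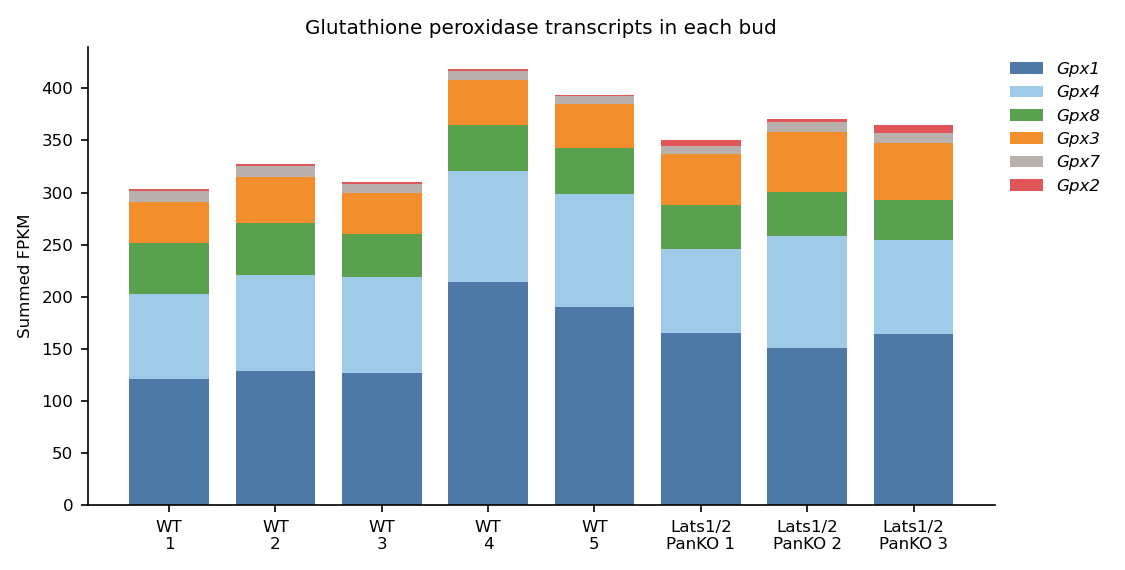
Stacked FPKM of the 6 glutathione peroxidases in each of the 5 WT and 3 Lats1/2PanKO buds, with a linear axis from 0. The total is highest in WT replicates 4 and 5, where the Gpx1 segment is tallest, and the Gpx2 segment at the top is thickest in the 3 mutant buds.

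The systems that supply and surround these enzymes were followed through 10 gene lists with 116 different tested genes. Of these, 8 were higher and 5 lower in *Lats1/2*PanKO at an unadjusted p under 0.05, 11.2% together beside 11.3% of all genes, and 0 passed adjustment (limma). The medians of the lists lay between -0.07 and 0.13 on the log2 scale.

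**Figure D5:**
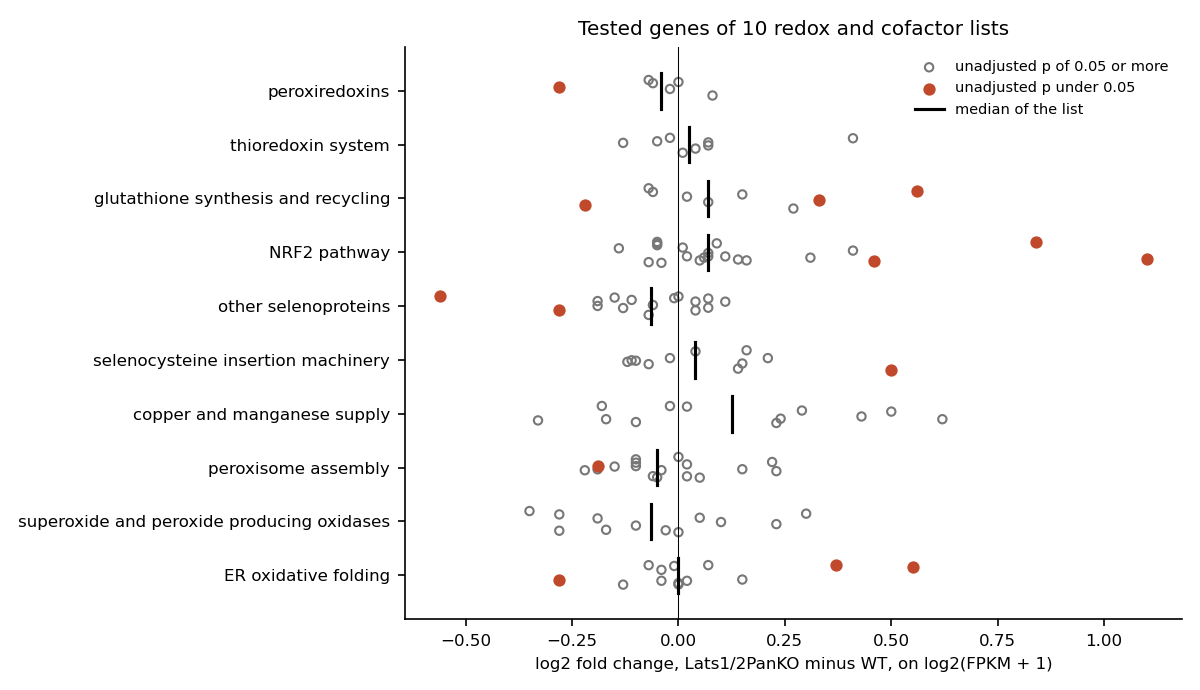
Log2 fold change on log2(FPKM + 1), Lats1/2PanKO minus WT, of each tested gene in 10 lists. Filled red points had an unadjusted limma p under 0.05, open points did not, black bars are list medians, and vertical scatter within a row carries no value. Every median lies within 0.13 of 0, and the filled points lie on both sides.

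The glutathione supply of the peroxidases showed a few genes at the edge. Of 9 tested genes for glutathione synthesis and recycling, 2 were higher and 1 lower at an unadjusted p under 0.05, with a median log2 fold change of 0.07. *Gsr*, which encodes glutathione reductase, was at 16.4, 16.1, 19.5, 19.3 and 17.5 FPKM in WT and at 22.0, 21.8 and 23.8 in *Lats1/2*PanKO, without overlap (log2 fold change 0.33, SE 0.08; exact permutation p = 0.0357; limma, adjusted p = 0.209). The glutaredoxins differed in direction, *Glrx3* from 71.7 ± 6.04 to 61.1 ± 2.38 FPKM and *Glrx*, named after its values were seen, from a mean of 6.39 to 10.1 ± 3.32 FPKM. *Gclc* and *Gclm*, which encode the subunits of the rate-limiting enzyme of glutathione synthesis and were also chosen afterwards, had log2 fold changes of -0.07 and 0.07.

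Among 21 tested genes of the NRF2 pathway, the main transcriptional response to oxidants, 3 were higher and 0 lower at an unadjusted p under 0.05, with 0 adjusted (limma) and a median log2 fold change of 0.07. The 3 were *Osgin1*, a stress-induced growth inhibitor (0.213 to 0.614 FPKM in WT and 1.55, 1.03 and 3.98 in *Lats1/2*PanKO), and the small Maf proteins *Mafk* (2.62 to 3.66 and 4.97, 4.42 and 10.1) and *Maff*, the last named after its values were seen. Both *Osgin1* and *Mafk* were highest in mutant replicate 3, as *Gpx2* and *Sod3* were. *Hmox1*, the heme oxygenase gene the study used as an oxidative stress marker, was at 5.64 ± 1.02 FPKM in WT and 5.39 ± 0.830 in *Lats1/2*PanKO, with a 95% interval of 0.77 to 1.22 in folds (limma, adjusted p = 0.932). The study measured *Hmox1* by qPCR at a later stage than these buds, and there it was significantly higher in the mutants. In early explants the study saw similarly low oxidant signal in both genotypes, and it placed the onset of oxidative stress after the stage sequenced here. In explants taken later, with an inducible deletion, it saw much more oxidant signal in the mutants. From RNA of the stage sequenced here, it also reported significant increases in several Gene Ontology sets for the metabolism and synthesis of reactive oxygen species. Those sets were not examined here. *Vnn1*, the pantetheinase gene that the study linked to oxidants, was at 0.466 to 0.914 FPKM in WT and at 14.5, 5.72 and 38.8 in *Lats1/2*PanKO (limma, adjusted p = 0.0631), in the same mutant order as *Gpx2*. *Krt8*, *Sox9*, *Onecut1* and *Qsox1* also had this order, and *Afp* did not, so the order is not particular to *Vnn1*.

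The selenium supply of GPX1 to GPX4 held few genes past the threshold. Of 16 other selenoprotein genes tested, 2 were lower and 0 higher at an unadjusted p under 0.05, namely *Selm* (10.5 ± 1.69 to 6.81 ± 1.52 FPKM) and *2700094K13Rik*, which encodes selenoprotein H (181 ± 12.5 to 149 ± 15.8 FPKM), with adjusted p of 0.287 and 0.291 (limma). Of 11 genes of the machinery that makes and inserts selenocysteine, 1 was higher, *Scly*, the lyase that recovers selenium from selenocysteine, at 4.56 to 6.50 FPKM in WT and 10.1, 7.25 and 8.26 in *Lats1/2*PanKO (limma, adjusted p = 0.238). *Sephs2*, which makes the selenium donor, had a log2 fold change of 0.04 (SE 0.07), and *Secisbp2*, which binds the selenocysteine insertion element, one of 0.21 (SE 0.10; limma, adjusted p = 0.493).

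In the lists nearest to the dismutases and catalase, few genes passed the threshold. Of 12 genes for copper and manganese supply, 0 passed an unadjusted p of 0.05, and the smallest p-values were those of *Slc31a2* and *Atp7a*, copper carriers (limma, adjusted p = 0.517 and 0.538). Of 17 peroxisome genes, 1 was lower at that threshold, *Pex14*, a docking protein for import, at 21.6 ± 0.915 and 18.8 ± 1.76 FPKM (limma, adjusted p = 0.384). Of 12 tested oxidase genes that produce superoxide or peroxide, 0 passed, *Nox4* was at 0.914 ± 0.302 and 1.04 ± 0.147 FPKM (limma, adjusted p = 0.862), and *Nox3*, *Duoxa1* and *Duoxa2* were listed at 0 in every library.

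The other peroxide-reducing and thiol systems were similar. Of 6 peroxiredoxins, 1 was lower, the *Prdx4* described above, and 0 were higher. Of 8 thioredoxin system genes, 0 passed, with *Srxn1*, the sulfiredoxin gene, nearest at 3.02 ± 1.00 and 4.21 ± 0.466 FPKM (limma, adjusted p = 0.513). Of 13 genes of oxidative folding in the endoplasmic reticulum, 2 sulfhydryl oxidases were higher, *Qsox1* at 6.78 to 9.63 FPKM in WT and 12.7, 9.17 and 17.2 in *Lats1/2*PanKO (limma, adjusted p = 0.326) and *Qsox2*, named after its values were seen, with a log2 fold change of 0.37 (SE 0.13), and *Prdx4* was lower.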

How the data were processed

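Total RNA of pancreas buds was sequenced by the authors from stranded, ribosome-depleted libraries. Per the submitters' processing notes and the study's methods, reads were trimmed with cutadapt 1.12 after FastQC, aligned to GRCm38/mm10 with TopHat2 2.1.0 and quantified per gene with Cuffdiff 2.2.1, with strand used. The authors deposited 1 FPKM value per gene and library. The values are stated to be quantile normalized, but the 8 columns did not share 1 distribution, and quantile normalization was therefore tried as an alternative. FPKM is relative to the total of each library, so more RNA of 1 cell type lowers the share of the rest. The study states an approximate number of reads per sample, but not the mapped fragments of each library. Low values of 393 single-exon genes were searched for steps of whole fragments. At most 14 fitted in any library, so the mapped depth of each library was not recovered.

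Genes averaging under 0.5 FPKM were left out, which kept 13777 of 24341, and 5450 were at 0 throughout. log2(FPKM + 1) was fitted with limma 3.58.1 in R 4.3.3, with a mean-variance trend and genotype as the only term, and p-values were adjusted by Benjamini-Hochberg over all genes tested. Fold changes on this scale understate the change of low genes such as *Gpx2* and *Sod3*. Exact two-sided permutation tests used the difference of mean log2(FPKM + 1) over all 56 splits. The code of the fit was tried before use on simulated, independent libraries with differences set large beside the spread. It recovered 198 of 200 changed genes and called 8 unchanged ones. Such settings lack effects shared by the genes of a library, so this says nothing about finding small differences in these buds. Nothing in the labels says that libraries of a genotype came from separate litters. The p-values treat the buds as independent, and they could be too small if littermates resemble each other.

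The members and lists were chosen with earlier results of these data known. Named genes were all members, *Lats1*, *Lats2*, 3 redox genes named by the study, the gene tied to a member in each list, and the 2 genes with the smallest p of each of 10 lists or the highest mean of each of 8 marker lists. Transcript sequences came from GENCODE M21, promoters and gene positions from RefSeq (GRCm38.p6). The deposited table's loci start at counts from 0 and were read as such.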

Additional observations from a re-analysis of the deposited data

Results flagged for a closer look

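In WT buds, *Cat* in replicate 4 (54.7 FPKM) lay far from the other 4, of which the nearest was 48.2 FPKM, a gap of 0.732 of the whole WT range. The same library had the highest erythroid marker sum and the highest *Gpx1*. Chance alone gives such a distance in about 1 in 20 groups of this size. The rule was applied to the WT values of all 10 genes and to the WT sums of the 10 lists and 8 marker lists. A single flag among so many groups is not unusual.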

How the results depend on the processing

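*Gpx2* (log2 difference 0.90 to 1.44) and *Gpx3* (0.29 to 0.43) kept their direction and an unadjusted limma p under 0.05 in all 15 alternatives without a block. *Gpx2* passed adjustment with array weights (1.08, adjusted p = 0.0196) and without *Lats1/2*PanKO replicate 2. The number of genes called, 2, was 18 with a pseudocount of 0.1 FPKM, 174 with array weights, 1 with no mean-variance trend and 0 to 69 with 1 library left out. The members' median ranged from -0.08 to 0.05 with 1 library left out. Small differences changed sign: *Cat* was -0.01 with array weights, and with 1 library left out *Gpx1* ranged from -0.01 to 0.20, *Gpx4* from -0.16 to 0.05, *Gpx7* from -0.12 to 0.00 and *Sod1* from -0.10 to 0.03. The cause was not tested. Deviations of same-numbered libraries of the genotypes were weakly correlated (r = 0.09, -0.10 and 0.07), and 2 of 3 mutant libraries correlated best with their own number. With 3 mutant libraries and such small values, this cannot decide whether the numbers pair the libraries. With the replicate block, 1 gene was called, 4 members had an unadjusted p under 0.05 (*Gpx1* and *Gpx8* beside *Gpx2* and *Gpx3*), their median was 0.06, and *Gpx4* (0.06) and *Sod1* (0.02) changed sign. The mapped depth of each library was not recovered, and *Sod3* below 1 FPKM rests on it most.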
